A study of Mus musculus with 2 samples.

Results

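The genes described here are 10 mouse genes of the Notch pathway and of its best known target in early thymocytes: the receptor genes Notch1, Notch2, Notch3 and Notch4, the target genes Ptcra, Dtx1, Hes1 and Nrarp, and the genes of the nuclear complex Rbpj and Maml1. They were taken by name from the GENCODE M21 annotation, out of 21701 protein-coding genes that could be scored in the same way. The assay was DNase-seq, which sequences the ends left by DNase I and so maps open DNA. The samples were whole thymus of 2 female B6CASTF1/J mice (the F1 cross of C57BL/6J and CAST/EiJ) at 14 days of age, biological replicates 1 and 2 of a single group. The labels give them different animal numbers and 1 shared donor identifier, and nothing in the labels says how the tissue was pooled or sorted. There is no treated, mutant or control group, so each value below is a level in normal thymus, and the spread between the replicates is its error. In whole tissue, fewer open cells and fewer cuts per open cell cannot be told apart.

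Notch receptors are cut after they meet a ligand on a neighbouring cell. The released intracellular domain enters the nucleus, joins the DNA-binding protein RBPJ and the coactivator MAML, and switches on genes such as Hes1, Dtx1, Nrarp and Ptcra. In the thymus, the ligand Dll4 on epithelial cells signals through Notch1 on incoming progenitors, which directs them to the T cell lineage and carries them to the checkpoint at which the pre-T cell receptor, whose invariant chain is the product of Ptcra, is tested. Signalling falls once thymocytes have passed that checkpoint.

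The following sequences are the open elements on which the results turn. Each of the first 6 is the whole replicate 1 peak, in the 5′ to 3′ direction of the gene it is listed under, and was read from the C57BL/6J reference GRCm38.p6 (mm10), so the CAST allele of these F1 mice may differ. Capitals mark bases that lay inside a footprint in both replicates, a footprint being a short stretch within open DNA that DNase I cut less than its surroundings. The elements are Notch1, 9809 bp upstream (chr2:26513501-26513760, minus strand); Notch3, 2421 bp downstream in intron 1 (chr17:32164301-32164560, minus strand); Notch3, 4611 bp downstream in intron 2 (chr17:32162141-32162340, minus strand); Ptcra, 4369 bp upstream (chr17:46767981-46768180, minus strand); Dtx1, 26066 bp downstream in intron 3 (chr5:120685761-120685960, minus strand); and Rbpj, 863 bp upstream of its nearest start (chr5:53589221-53589480, plus strand). Distances run from the transcription start to the middle of the peak.
Notch1 upstream element: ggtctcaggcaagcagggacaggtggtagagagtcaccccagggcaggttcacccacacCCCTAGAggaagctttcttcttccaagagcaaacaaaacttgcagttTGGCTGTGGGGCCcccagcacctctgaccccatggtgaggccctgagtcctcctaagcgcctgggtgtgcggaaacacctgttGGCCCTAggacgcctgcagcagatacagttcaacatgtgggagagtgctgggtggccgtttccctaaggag
Notch3 intron 1 element: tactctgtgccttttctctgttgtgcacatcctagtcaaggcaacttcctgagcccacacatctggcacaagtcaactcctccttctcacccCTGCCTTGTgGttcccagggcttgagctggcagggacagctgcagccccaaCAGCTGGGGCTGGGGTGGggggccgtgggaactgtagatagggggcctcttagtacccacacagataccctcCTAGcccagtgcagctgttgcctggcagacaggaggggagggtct
Notch3 intron 2 element: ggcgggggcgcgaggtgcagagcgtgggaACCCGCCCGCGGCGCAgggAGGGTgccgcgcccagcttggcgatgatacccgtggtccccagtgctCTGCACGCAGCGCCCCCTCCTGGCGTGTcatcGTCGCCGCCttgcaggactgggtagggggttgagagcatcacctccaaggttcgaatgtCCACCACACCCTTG
Ptcra upstream element: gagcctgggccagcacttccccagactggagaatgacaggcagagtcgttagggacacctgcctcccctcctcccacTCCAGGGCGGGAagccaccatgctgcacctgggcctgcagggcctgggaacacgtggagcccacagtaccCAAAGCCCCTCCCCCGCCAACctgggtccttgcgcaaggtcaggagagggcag
Dtx1 intron 3 element: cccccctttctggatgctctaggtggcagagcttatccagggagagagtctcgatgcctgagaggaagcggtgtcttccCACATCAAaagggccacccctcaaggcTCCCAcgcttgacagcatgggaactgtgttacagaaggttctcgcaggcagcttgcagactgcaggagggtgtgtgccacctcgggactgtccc
Rbpj upstream element: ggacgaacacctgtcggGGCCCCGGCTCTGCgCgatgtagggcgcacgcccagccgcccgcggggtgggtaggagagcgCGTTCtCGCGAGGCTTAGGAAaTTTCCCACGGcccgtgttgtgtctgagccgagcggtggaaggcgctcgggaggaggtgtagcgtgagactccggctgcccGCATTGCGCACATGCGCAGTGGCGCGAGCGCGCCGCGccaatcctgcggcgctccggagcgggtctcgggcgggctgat
The last pair are promoters from the RefSeq table of the same build, 250 bases before the start, shown because they have the highest and the lowest CpG ratio among the 9 genes found in that table. In the Notch2 promoter (chr3:98013288-98013537, plus strand) capitals again mark footprints of both replicates. In the Ptcra promoter (chr17:46763713-46763962, minus strand) no base lay in footprints of both, and capitals mark the string CAGCTG instead.
Notch2 promoter: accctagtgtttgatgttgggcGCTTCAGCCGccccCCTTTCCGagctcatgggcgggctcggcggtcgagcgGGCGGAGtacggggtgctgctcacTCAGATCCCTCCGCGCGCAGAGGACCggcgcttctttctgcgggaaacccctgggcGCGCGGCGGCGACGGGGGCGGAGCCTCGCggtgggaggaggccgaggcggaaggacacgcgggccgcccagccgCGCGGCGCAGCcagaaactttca
Ptcra promoter: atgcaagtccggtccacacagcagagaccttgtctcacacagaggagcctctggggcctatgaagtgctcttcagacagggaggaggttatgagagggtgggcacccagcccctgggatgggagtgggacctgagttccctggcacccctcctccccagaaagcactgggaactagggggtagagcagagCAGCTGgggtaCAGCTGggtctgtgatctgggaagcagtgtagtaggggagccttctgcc

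Promoters of 9 of the 10 genes were open in both replicates, against a background of 58.6% of all protein-coding genes (12721 of 21701). A promoter was called open where a peak of the authors' longer list had a base within 500 bp of an annotated start. Its strength is the signal that the authors deposited for the strongest such peak, given here with its percentile among the open promoters of the same replicate, because the scale of the signal differed between replicates. The median strength of the 9 open promoters was 6.01 in replicate 1 and 3.48 in replicate 2, against 5.80 and 3.74 over all open promoters, so the genes as a group had promoters of about middling strength. The individual promoters were far apart.

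The strongest receptor promoter was that of Notch2 (ENSMUSG00000027878.11, chr3:98013527-98150361), at 11.3 in replicate 1 and 7.09 in replicate 2 (percentiles 73.4 and 81.0). Notch1 (ENSMUSG00000026923.15, chr2:26457903-26516663), the receptor that T lineage progenitors need, had 6.01 and 4.47, at percentiles 51.1 and 57.8. Notch3 (ENSMUSG00000038146.8, chr17:32120820-32166852), which is itself induced by Notch signalling in thymocytes, had 1.79 and 1.51, at percentiles 25.03 and 26.6, values that rise to 4.51 and 3.201 when peaks up to 1000 bp from the start are counted. These 3 receptors kept that order in both replicates, and their percentile ranges did not overlap. Notch4 (ENSMUSG00000015468.14, chr17:34564268-34588503), a receptor best known from endothelium, had no promoter peak in either replicate. Its start site also had 0 bases listed under a false discovery rate of 0.05 within 500 bp, whereas Notch1 had 955 such bases in replicate 1 and 1001 in replicate 2.

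Among the targets, Ptcra (ENSMUSG00000036858.8, chr17:46755663-46763712) had the strongest promoter in replicate 1, at 6.16, but 1.83 in replicate 2. Its percentile was 52.0 in replicate 1 and 30.0 in replicate 2, the widest gap of the open members. Nrarp (ENSMUSG00000078202.3, chr2:25180758-25183339), a feedback inhibitor of Notch signalling, had 5.45 and 3.48, at percentiles 48.1 and 47.2. Its rank hardly moved between the mice, and its range fell inside that of Ptcra, so the order of Ptcra and Nrarp is not settled. Dtx1 (ENSMUSG00000029603.15, chr5:120680202-120711927), which encodes a ubiquitin ligase of the Deltex family, had 1.23 and 1.17. Hes1 (ENSMUSG00000022528.8, chr16:30064384-30067796), which encodes a basic helix-loop-helix repressor, had 0.919 and 0.535. With the 500 bp window, Hes1 and Dtx1 were the weakest open promoters of the 10 genes in both mice. Their percentiles were 15.9 and 11.54 for Hes1 and 19.8 and 22.2 for Dtx1. When peaks up to 1000 bp from the start are counted, Hes1 rises to 2.12 and 1.75, above Dtx1, whose values do not change.

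The genes of the nuclear complex had promoters above the middle of the scale. Maml1 (ENSMUSG00000050567.16, chr11:50255634-50292311), which encodes a Mastermind coactivator, had 12.2 in replicate 1 and 5.61 in replicate 2. Rbpj (ENSMUSG00000039191.12, chr5:53466152-53657362), the gene of the DNA-binding subunit, had 7.31 and 5.48. The percentiles were 76.1 and 68.9 for Maml1 and 57.7 and 67.5 for Rbpj. The range of Maml1 met that of Notch2, and the range of Rbpj lay below both, though close to that of Maml1. With a 1000 bp window Rbpj had 14.0 and 6.77, above the unchanged values of Maml1, so the order of Maml1 and Rbpj depends on the window. Rbpj has 5 start sites in the annotation used, and the other 9 genes have 1 each.

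**Figure D1:**
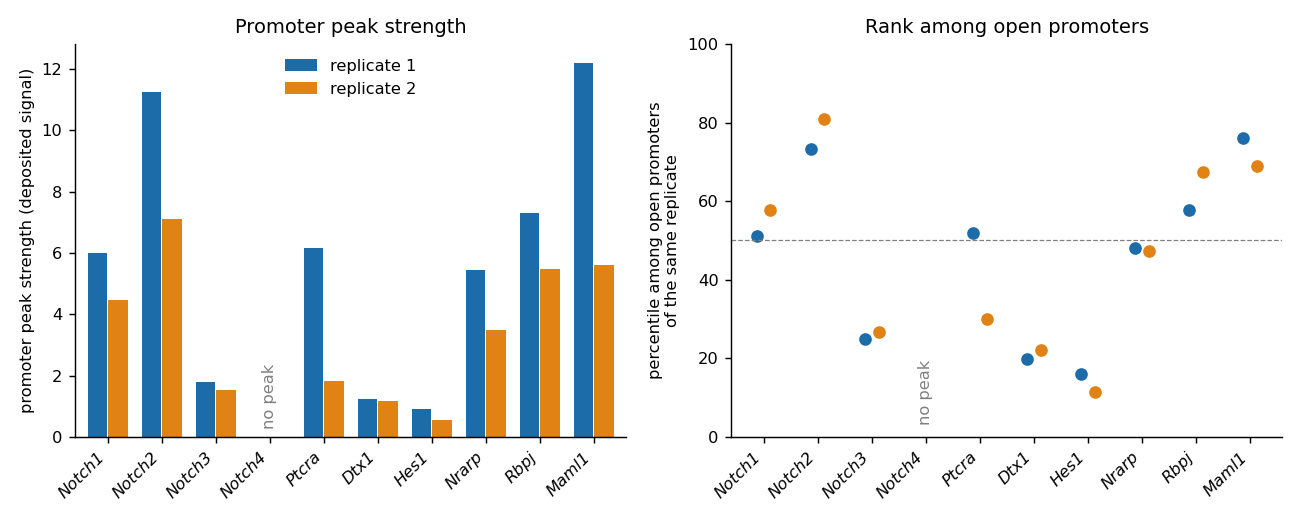
Promoter peak strength (left, deposited signal) and percentile among the open promoters of the same replicate (right) for the 10 genes, with replicate 1 in blue and replicate 2 in orange. Notch1, Notch2, Rbpj and Maml1 lie above the 50th percentile in both replicates, and Nrarp lies just below it. Notch3, Dtx1 and Hes1 lie at or below 26.6, Ptcra falls on both sides of the 50th, and Notch4 has no peak.

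Away from promoters, most of the 10 genes had more open elements around them than the median gene. A distal peak lay more than 500 bp from every annotated start and within the gene body or 50 kb to either side. The median over the 10 genes was 10.5 distal peaks per 100 kb in replicate 1 and 9.56 in replicate 2, against 3.88 and 4.85 over all protein-coding genes. Over the 54 other pathway genes described below it was 6.97 and 7.92. Over 12 thymocyte marker genes it was 20.8 and 24.5, well above the 10 genes. In both replicates 9 of the 10 genes were above the median of all genes, with Rbpj the exception. These spans also hold neighbouring genes, so a distal peak is listed by position and not assigned to a target.

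Dtx1, Nrarp, Notch1, Hes1 and Notch3 had dense surroundings with close counts in the 2 mice. Dtx1 had 17 distal peaks in replicate 1 and 18 in replicate 2, or 13.3 ± 0.537 per 100 kb (SD, n = 2). Nrarp had 13 in each replicate, or 12.7 per 100 kb. Notch1 had 18 in each, or 11.3 per 100 kb, and Notch3 15 in each, or 10.3 per 100 kb. Hes1 stood close to these, with 11 and 12 peaks and 11.1 ± 0.684 per 100 kb. All 5 genes ranked above the 83rd percentile of protein-coding genes in both mice.

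Notch4 had 23 distal peaks in replicate 1 but 11 in replicate 2, or 13.7 ± 6.83 per 100 kb, and 10 of its elements were found in replicate 1 alone. Its place in the order therefore cannot be given. Ptcra had 10 and 7, or 7.87 ± 1.96 per 100 kb, and Maml1 6 and 11, or 6.22 ± 2.59 per 100 kb. Notch2 had 11 and 14 over a long span, or 5.28 ± 0.896 per 100 kb. Rbpj had 8 and 11, or 3.26 ± 0.728 per 100 kb, at percentiles 39.1 and 40.6. Rbpj thus combined a promoter above the middle with surroundings below it in both mice, the reverse of Dtx1 and Hes1, while the density around Notch2 was slightly above the median of all genes.

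**Figure D2:**
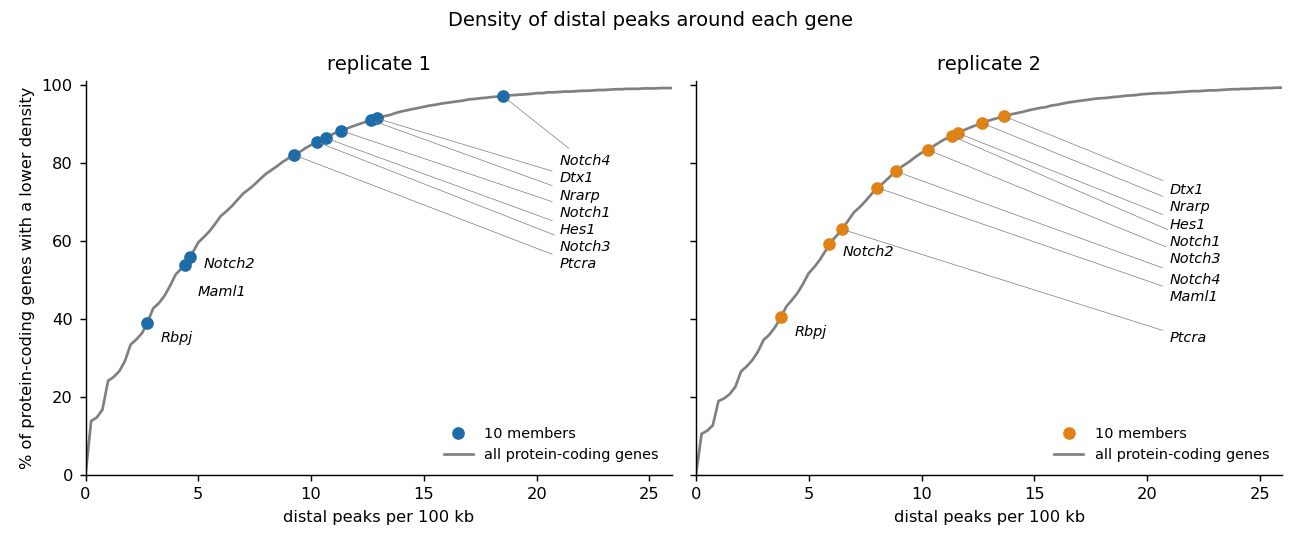
Distal peaks per 100 kb (horizontal axis) against the percentage of protein-coding genes with a lower density (vertical axis) in replicate 1 (left) and replicate 2 (right), with the 10 genes as points on the curve of all genes. Dtx1, Nrarp, Notch1, Hes1 and Notch3 lie above the 83rd percentile in both panels and Rbpj at percentiles 39.1 and 40.6.

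At 5 of the 9 genes with an open promoter, the strongest distal peak was stronger than the promoter in both replicates, where the background is 27.8% of genes with an open promoter (3535 of 12721). The 5 were Notch3, Dtx1, Hes1, Nrarp and Rbpj. The strongest distal peak was taken in each replicate alone, and at Notch3, Dtx1 and Nrarp it was a different element in each. Nrarp passed by a small margin, with 5.95 against 5.45 in replicate 1 and 4.39 against 3.48 in replicate 2. Both of its distal peaks lay nearest to the start of another gene, Tubb4b. A gene with a weak promoter passes this comparison more easily, and Notch3, Dtx1 and Hes1 had the weakest promoters. Rbpj passed through an element 863 bp from its nearest start, which becomes a promoter peak with a 1000 bp window. The comparison was not repeated with that window.

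The strongest distal element of Notch3 was the intron 1 element printed above, which reached 13.4 in replicate 1 and 3.13 in replicate 2 (percentiles 97.1 and 89.3 of all peaks). It was stronger than the Notch3 promoter in each mouse when a promoter reached 500 bp from the start. With 1000 bp, the promoter strength became 4.51 in replicate 1 and 3.201 in replicate 2, and the intron 1 element was the stronger in replicate 1 only. The intron 2 element had 3.12 and 5.39, so the order of the pair turned between replicates. Another intronic element, 711 bp downstream of the start, is the one that the wider window adds, and carried 6 footprints in each replicate. All 3 lay closer to the Notch3 start than to any other protein-coding start.

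At Notch1, the strongest distal element lay 9809 bp upstream, with 9.44 in replicate 1 and 2.36 in replicate 2, at percentiles 94.9 and 85.1. In replicate 1 it exceeded the Notch1 promoter and in replicate 2 it did not. The annotation places it between protein-coding genes of the basic set, but within the longer extent of the Notch1 gene that the annotation draws from additional transcripts. The next elements were 54071 bp downstream (chr2:26449601-26449900), with 3.05 and 3.85, and at -48429 bp (chr2:26552161-26552340), with 5.23 and 2.04. The downstream one is 4535 bp from the start of Sec16a, a gene of vesicle export from the endoplasmic reticulum.

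Notch2 and Notch4 differed from both. The strongest distal element of Notch2, 166743 bp downstream of its start (chr3:98180161-98180400), had only 1.600 and 0.645, far below its promoter. The strongest element of Notch4 had 12.7 and 9.63 and lay 23373 bp downstream, in coding exon 30 (chr17:34587541-34587740). It is 2165 bp from the start of Gpsm3, which encodes a modulator of G protein signalling. The comprehensive annotation lists 11 Notch4 start sites rather than 1, and with those the exon 30 peak counts as a Notch4 promoter, with the same strengths.

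Among the targets, Dtx1 had its strongest distal element 26066 bp downstream in intron 3, with 8.81 in replicate 1 and 2.50 in replicate 2, at percentiles 94.4 and 86.0. Both exceeded the Dtx1 promoter. An element 2544 bp upstream (chr5:120714381-120714560) had 2.13 and 3.41, and an element in intron 16 of the neighbouring gene Rasal1 (chr5:120673721-120673920) had 1.85 and 3.01. The strong intron 3 element was stronger in replicate 1 and the other 2 in replicate 2.

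Ptcra had an element 4369 bp upstream, with 4.498 and 1.601, at percentiles 88.4 and 77.5. It was weaker than the Ptcra promoter in both mice. An upstream enhancer of mouse Ptcra that answers to Notch is known from transgenic work, and whether the printed element is that enhancer was not tested. A closer element, 1039 bp upstream (chr17:46764661-46764840), had 1.39 and 0.616. The element of highest mean percentile in the Ptcra span, 38241 bp downstream (chr17:46725361-46725580), had 3.98 and 2.72 but lies in a UTR of Pex6, a gene of peroxisome assembly.

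Hes1 had 3 named elements. The strongest lay over coding sequence, 1771 bp downstream of the start (chr16:30066961-30067260, exon 4), with 2.79 and 4.37. An element 989 bp upstream (chr16:30064241-30064460) had 2.12 and 1.75 and carried 6 and 7 footprints. It lies over the start at 30064384 of a Hes1 transcript of the comprehensive annotation, and with that start the Hes1 promoter strength was 2.12 and 1.75 instead of 0.919 and 0.535. An element 40549 bp upstream (chr16:30024701-30024880) had 1.90 and 1.15. The peaks 989 bp upstream and 1771 bp downstream were thus both stronger than the peak at the basic-set start. With the comprehensive annotation, the upstream one is itself at a Hes1 start.

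The strongest distal element of all those named in replicate 1 was the Rbpj element 863 bp upstream of its nearest start, in intron 1 of a longer transcript, with 14.0 in replicate 1 and 6.77 in replicate 2. Because it lies just outside the 500 bp limit, it counts as a promoter peak under a 1000 bp window. Nrarp had its strongest element 48013 bp downstream (chr2:25228681-25228860), with 5.95 and 3.89, at 4069 bp from the start of the tubulin gene Tubb4b. Maml1 had its strongest 60780 bp downstream in intron 4 of Mgat4b (chr11:50231421-50231640), with 1.28 and 2.10, far below its promoter.

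**Figure D3:**
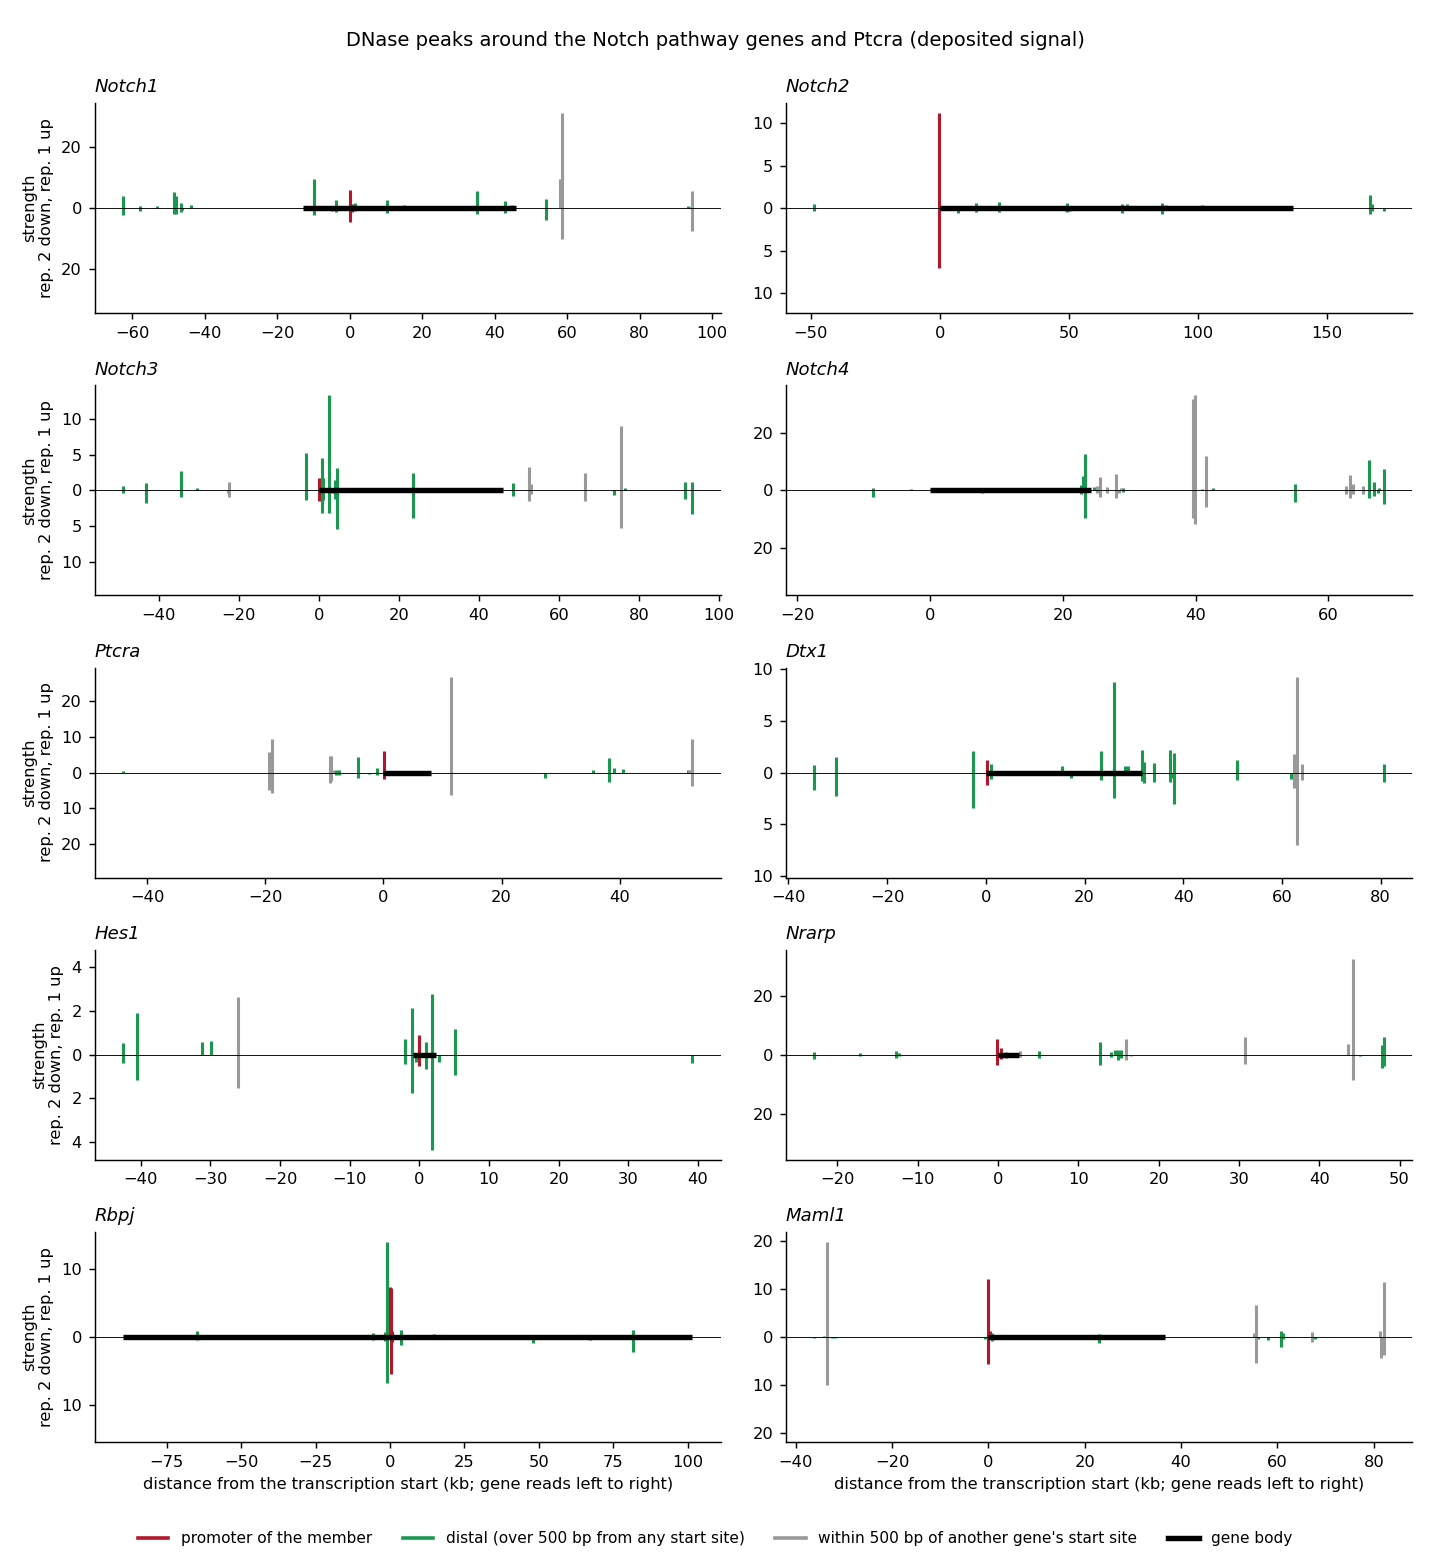
Peak strength (deposited signal, replicate 1 upward and replicate 2 downward) against distance from the start of each of the 10 genes in kb, with promoter peaks red, distal peaks green, peaks at other genes' starts grey and the gene body as a black bar. Vertical scales differ between genes. Tall green lines include those at -9809 bp in Notch1, 2421 bp in Notch3, 23373 bp in Notch4, 26066 bp in Dtx1 and -863 bp in Rbpj, and Notch2 and Maml1 have no strong distal peak.

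The 2 mice shared most of these elements. The spans of the 10 genes held 197 peaks in replicate 1 and 189 in replicate 2. In replicate 1, 76.7% were found again in the other mouse, where the background over all 97051 peaks was 75.2%. In replicate 2, 79.4% were found again, where the background over all 108010 was 66.4%. Among distal peaks the percentages were 75 and 75.4 for the members, against 72.7 and 61.5 for all. Over the 141 elements found in both replicates, strengths correlated with Spearman's rho 0.871 and, as log2 values, Pearson's r 0.878. This describes agreement across elements of the same 2 libraries, which share neither a scale nor, as far as is known, a depth.

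Footprints were also dense. The spans held 720 footprints in replicate 1 and 688 in replicate 2, with a median over genes of 54.5 and 51.5 per 100 kb, against 20.2 and 23.9 over all genes. In both replicates 8 of the 10 genes were above the median of all genes, and Notch2 and Rbpj were below it. Each peak carried on average 2.95 and 2.91 footprints, against 2.40 and 2.55 over all peaks. Of the footprints 51.8% and 57.4% overlapped one of the other replicate, against 50.8% and 45.5% over all footprints. About as many footprints were found again as elsewhere in replicate 1 and more in replicate 2. Coverage varied among the printed elements. The Rbpj upstream element had 98 of 260 bases in footprints in replicate 1, 99 in replicate 2 and 82 in both, the Notch3 intron 2 element had 72 of 200 in both and the Notch2 promoter 91 of 250 in both. The Notch1 upstream element had 27 such bases of 260 and the Dtx1 intron 3 element 13 of 200.

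RBPJ binds a sequence whose core is usually written GTGGGAA. This string occurred in 22 of the 197 peaks of the 10 genes in replicate 1 (11.2%) and in 20 of 189 in replicate 2 (10.6%), against 4.28% and 4.93% of all peaks. With every peak set to 200 bases around its middle the values were 10.7% and 10.1%, against 4.48% and 4.28%. Among distal peaks the percentages were 12.9 and 12.3, against 4.23 and 4.73. The 6-letter core TGGGAA, which GTGGGAA contains and which also overlaps the Ikaros-type string GGGAA, was in 23.4% and 24.3% of the members' peaks, against 14.6% and 18.2%. Another G-rich string, the SP/KLF-type GGGCGG, was likewise more frequent, in 35.5% and 31.2% of the members' peaks against 20.9% and 19.0% of all. The part of base composition in the difference of GTGGGAA was not tested. In contrast, the RUNX-type string TGTGGT was in 18.8% and 15.3% of the members' peaks, against 17.7% and 18.5%.

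The 31 copies of GTGGGAA lay in 28 elements. The spans of Notch4 and Dtx1 held 6 copies each, that of Notch1 held 5, and that of Ptcra none. Many lay in or beside neighbouring genes. Most of the Notch4 span's copies were at Gpsm3, Pbx2, Ppt2 and Prrt1, and some of the Dtx1 span's were in Rasal1. Those of the Maml1 span were at Sqstm1 and Canx. The promoters of the 9 genes in the RefSeq table (250 bases before to 50 after the start) held none either, where 6.23% of 20039 promoters hold one. Hes1, the member absent from that table, does hold a copy at its promoter, given below. Most of the copies lay outside footprints. In replicate 1, 8 of the 720 footprints (1.11%) held the string when 5 bases were added to each side, and in replicate 2, 4 of 688 (0.581%), against 0.460% and 0.369% of all footprints. Of the 31 copies, 8 shared at least 1 base with a footprint in either replicate and 4 did so in both. The footprinted share of all copies in the genome's peaks was not computed, so these counts have no background.

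The clearest of the 4 was at Rbpj itself. The copy 888 bp upstream of the nearest start (chr5:53589323-53589329), which reads TTCCCAC in the printed upstream element, had all 7 bases inside a footprint in both replicates. At Dtx1, the copy in the intron 3 element (chr5:120685879-120685885) had 4 bases in a footprint in replicate 1, 3 in replicate 2 and 3 in both. A second Dtx1 copy, 23219 bp downstream (chr5:120688705-120688711), had 6 and 1. At Notch3, the copy in the intron 2 element (chr17:32162311-32162317) had 2 and 1, at the edge of a footprint. The copy in the Notch3 intron 1 element (chr17:32164387-32164393) had all 7 bases in a footprint in replicate 1 and none in replicate 2. In the Hes1 promoter, the copy 78 bp before the start (chr16:30065259-30065265) had 4 bases in a footprint in replicate 1 and none in replicate 2. A match to the string is a description of the sequence and does not show that RBPJ was bound.

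The Ptcra elements held other strings. The upstream element had no GTGGGAA but 1 copy of TGGGAA (chr17:46768054-46768059), in a footprint in neither replicate, and a GGGCGG in a footprint in both. The Ptcra promoter differed from the others in composition. Its ratio of observed to expected CpG was 0.0357, lower than in all but 4.25% of promoters, whereas the other 8 members of the table, without Hes1, ran from 0.214 in Notch4 to 1.04 in Notch2, against a median of 0.590. It held 3 copies of the E-box CAGCTG, a string bound by E proteins such as E2A and HEB, which 15.8% of promoters hold at least once. Of these 3, the copy at 23 bp after the start overlapped a footprint in both replicates. In replicate 1 it lay wholly inside the footprint, but in replicate 2 it shared only 1 base at the footprint's edge. The 2 copies printed above overlapped a footprint in replicate 1 only.

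**Figure D4:**
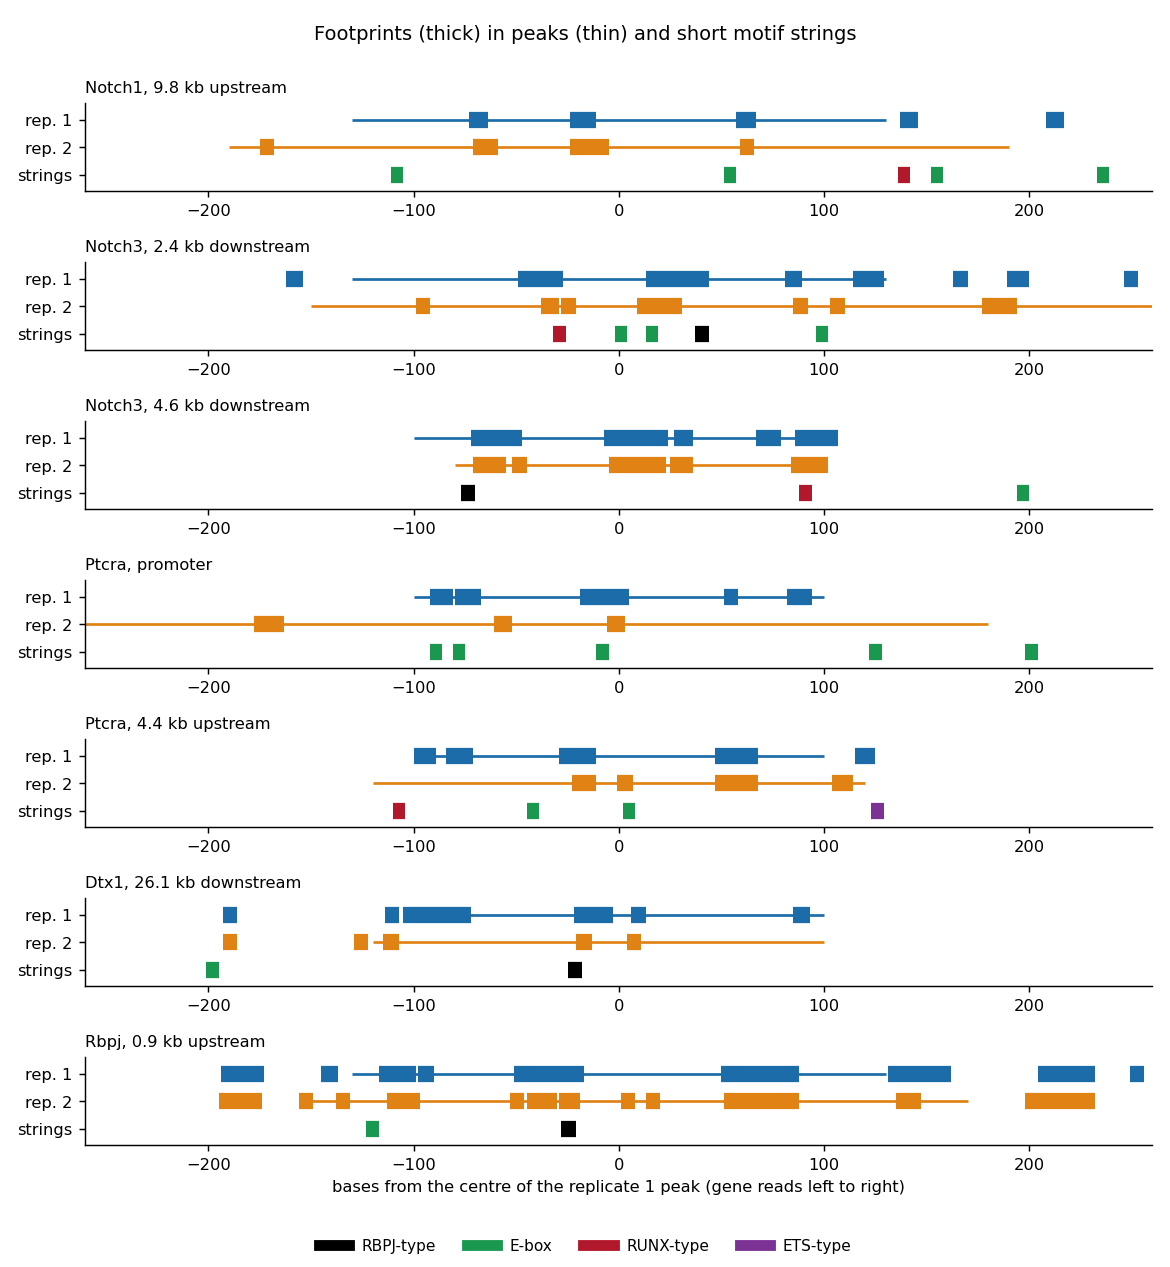
Footprints (thick bars) within peaks (thin lines) of replicate 1 (blue) and replicate 2 (orange) in 7 elements, drawn in bases from the centre of the replicate 1 peak, with short motif strings below. The RBPJ-type string in the Rbpj element (-888 bp from the start) lies under footprints of both replicates over all 7 bases, and no RBPJ-type string is drawn in either Ptcra element or in the Notch1 element.

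The other genes of the pathway were mostly open too. Of 54 further genes, 48 were open in both replicates, beside the background of 58.6%. All 10 protease genes were open. Aph1c (21.7 and 9.44) and Adam10 (20.2 and 9.26), which makes the first ligand-induced cut, were the strongest in replicate 1, and Psen2 (12.5 and 11.9), a catalytic subunit of gamma-secretase, in replicate 2. All 13 nuclear cofactor genes were open, with Hdac1 (20.5 and 6.81) and Ep300 (19.4 and 6.86) the strongest 2 in each replicate and Maml3, a further Mastermind gene, at 14.0 and 4.67. All 12 genes of turnover and ubiquitin ligation were open as well, led by Mib2 (15.5 and 8.02), Numb (11.5 and 6.08) and Dtx2 (9.08 and 6.02). The cutting and turnover machinery, which most cell types use, was open throughout.

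The sugar-transferring enzymes, which tune how receptors answer to ligands, were open in 5 of 5 genes. Mfng had 7.69 in replicate 1 and 3.37 in replicate 2, Pofut1 7.04 and 4.28, Rfng 3.33 and 2.56, and Lfng, the Fringe gene best known from thymocytes, 1.45 and 1.16. The ligand genes were weak. Of 6, 4 were open in both replicates, with Jag2 the strongest at 1.07 and 1.13, Dll3 at 0.888 and 0.944, Jag1 at 0.795 and 0.743 and Dll1 at 0.384 and 0.478. All 4 ranked below the 22nd percentile of open promoters. Dll4, the ligand of thymic epithelium, had no peak in replicate 1 and 0.530 in replicate 2, and Dlk1 had none in either. Among markers of the cells that present ligands, 4 of 8 thymic epithelial and 3 of 7 endothelial genes were open in both replicates, counts that lie below the background of 58.6% but not far from it. Of the other marker lists, all 12 thymocyte genes were open, with 2 of 6 mesenchymal, 1 of 5 B cell, 3 of 5 myeloid, 1 of 4 erythroid and 0 of 4 hepatocyte genes. Of the epithelial markers, Ccl25 had 9.67 and 8.28, Aire 5.30 and 5.16, Prss16 1.45 and 1.08 and Epcam 1.26 and 0.714, while Foxn1, Psmb11, Krt5 and Krt8 had no peak. The part of cell makeup in the ligand values was not tested.

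The Hes and Hey family, of which some members are induced by Notch, was open in part. Of 8 genes besides Hes1, 4 were open in both replicates, which is near the background of 58.6%. Hes6 had 18.7 and 5.57, Hey2 7.09 and 4.89, Hey1 3.485 and 3.196, and Hes5 1.91 and 1.49, so all 4 exceeded the Hes1 promoter in both mice, although Hes5 did not exceed the Hes1 peak at the comprehensive start. Hes2, Hes7 and Heyl had a weak peak in replicate 2 alone (0.311, 0.397 and 0.524), and Hes3 had none.

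**Figure D5:**
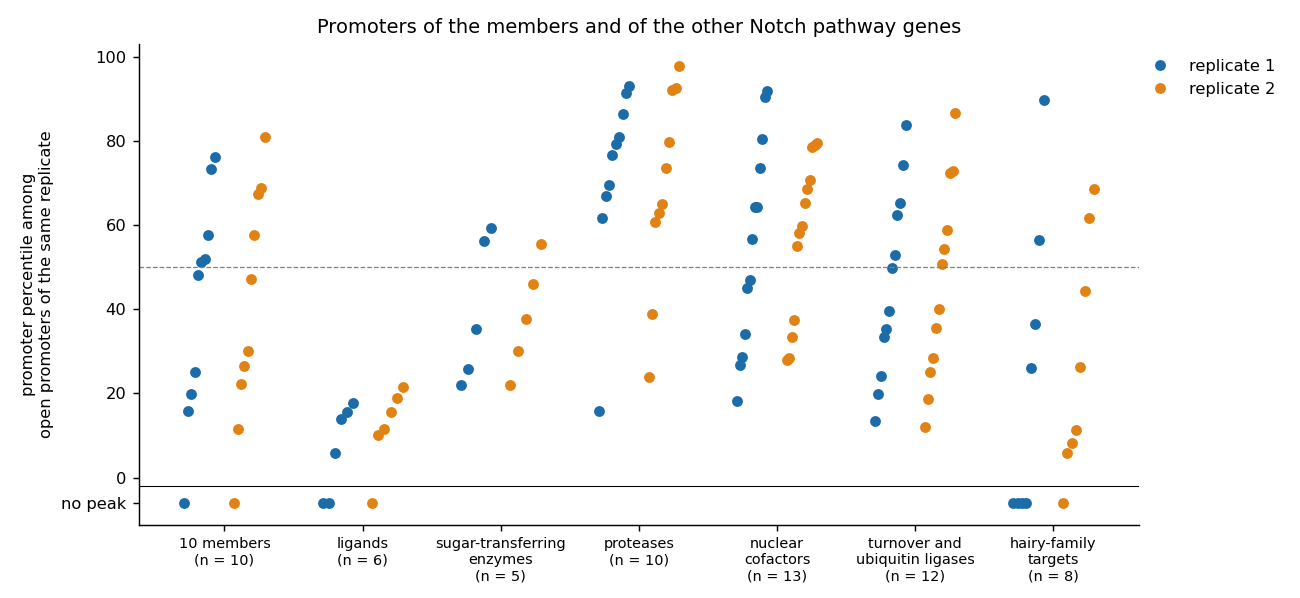
Percentile of the promoter among open promoters of the same replicate for the 10 genes and for 54 other pathway genes by role, with replicate 1 in blue and replicate 2 in orange and genes without a peak at the bottom. Ligand promoters all lie below the 22nd percentile, protease promoters mostly above the 60th, and 4 hairy-family genes have no peak in replicate 1.

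As a frame for these values, replicate 1 had 97051 peaks and replicate 2 had 108010 in the longer lists, with a median strength of 0.795 and 0.645, and 276400 and 318156 footprints. The sources used here do not give the number of sequenced reads, so no counting interval can be set on any strength.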

How the data were processed

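Open chromatin was measured by DNase-seq in thymus of 2 mice that form 1 group, so differences between conditions were not analysed here. Per the labels, the values refer to mm10. The sources used here do not name the aligner, the peak and footprint callers, their settings or the read depth. The files that the authors deposited hold, for each replicate, a longer and a shorter peak list with a signal per peak (the strength, whose scale differed between replicates), footprints, and a track of false discovery rates, a q-value per run of bases that lists only runs under 0.05. The number of reads behind a peak is unknown, which limits the precision of every strength.

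From the longer list, a promoter was called open where a peak had at least 1 base within 500 bp of a transcription start of the GENCODE M21 basic set. A distal peak lay farther than that from every annotated start and had its midpoint in the gene body or 50 kb to either side. As background, all 21701 protein-coding genes of the autosomes and the X chromosome with a unique symbol were scored alike. Peaks were shared at 1 base of overlap. Strings were searched on both strands of GRCm38.p6. No test was run, since there is 1 group; percentages over all genes or peaks serve as background. For each member the strongest distal peak by mean percentile found in both replicates was named, and for Notch1, Notch3, Ptcra, Dtx1 and Hes1 the 3 strongest. The members and gene lists were chosen with earlier results of these data known. Interval functions were tested on simulated data. Python 3.11.15, pandas 2.3.3, NumPy 2.4.6 and matplotlib 3.10.9 were used. The alternatives tried were the shorter list, other windows, flanks and sets of start sites, a stricter overlap, a shorter string and each replicate alone.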

Additional observations from a re-analysis of the deposited data

How the results depend on the processing

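The count of open promoters was 9 of 10 with the shorter peak list, a 1000 bp window or either replicate alone. It was 8 with the outermost start only and 10 with the starts of the comprehensive annotation, an alternative chosen after seeing the data that adds Notch4. The corresponding counts for the other pathway genes ran from 45 to 52 of 54. The mean number of distal peaks was 131 and became 200.5 with 100 kb to each side, a span that is wider by construction; it ran from 90.5 to 140.5 under the other alternatives. Footprints numbered 704 on average and 470.5 to 720 under the alternatives. The mean percentage of shared peaks was 78.0 and became 81.16 with the shorter list and 60.38 with a reciprocal overlap of at least 50%. GTGGGAA was in 21 peaks on average, 17.5 with the shorter list, and the core TGGGAA was in 46. Each replicate alone gave 130 and 132 distal peaks, 688 and 720 footprints and 20 and 22 peaks with GTGGGAA. With the 1000 bp window the promoter strength became 4.51 and 3.201 at Notch3, 2.12 and 1.75 at Hes1 and 14.0 and 6.77 at Rbpj, since a neighbouring peak then counted. Sharing cannot be computed from 1 replicate. No paired analysis was possible because the series has 1 group and no test was made. Depth is unknown, so weak peaks such as those of Hes2 and Dll4 in replicate 2 alone are at the limit of what these lists show.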

Other observations

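The replicates differed in strength at single elements. Over 64454 peaks that paired one to one in the genome, the strength in replicate 1 was a median of 1.19 times that in replicate 2, with a 5th to 95th percentile of 0.439 to 2.92. Over the 135 pairs in the spans of the 10 genes the median was 1.41 and the range 0.576 to 3.42, shifted upward but no wider in fold terms. Several of the elements described above stood at the upper end; they are singled out here after their values were seen. The Notch3 intron 1 element had a ratio of 4.28, higher than 99.5% of all pairs. The Notch1 upstream element had 4.0 (99.2%), the Dtx1 intron 3 element 3.53 (98.1%), the Ptcra promoter 3.37 (97.5%) and the Ptcra upstream element 2.81 (94.1%). These percentages are over pairs of all strengths. The distal elements were named for their strength, and pairs of like strength were not compared. Thymocyte marker promoters leaned the same way, with a median ratio of 2.55 over 12 genes (1.67 to 3.76), against 1.57 over the 9 open member promoters and 1.56 over all open promoters.

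Other elements of the same genes went the opposite way: the ratio was 0.578 in the Notch3 intron 2 element, 0.626 in the Dtx1 element 2544 bp upstream and 0.612 in the Maml1 element in Mgat4b. None of these peaks held the exact CTCF consensus that was searched, so they count below as peaks without one. Each held a string that differs from the consensus by 1 base and lay inside a footprint of both replicates. Across the genome, distal peaks that hold a CTCF consensus had a median ratio of 0.570, with 8.34% stronger in replicate 1 (4878 pairs), against 1.19 and 60.6% for distal peaks without one (42399 pairs). In the spans of the 10 genes all 4 distal pairs with a CTCF consensus were stronger in replicate 2, against 71.8% stronger in replicate 1 among the 85 without. The part of cell makeup in these ratios was not tested.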
